A study of Homo sapiens with 9 samples.

Results

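PTPRU and MATN1 are the protein-coding genes at the ends of a gene-poor stretch of human chromosome 1, and the stretch between them forms a single topologically associating domain (TAD). PTPRU lies at chr1:29563028-29653325 on the + strand and MATN1 at chr1:31184124-31196432 on the - strand (hg19). The domain, here called the core, was taken as chr1:29640001-31200000, which is 39 bins of 40 kb and 1560 kb long, out of 77404 bins of 40 kb in the whole series. PTPRU and MATN1 were 2 of 20176 annotated protein-coding genes. The core was examined with its surroundings from 28.5 to 32.5 Mb, with a left flank of 29 bins and a right flank of 33 bins. PTPRU, MATN1 and the core were chosen because this TAD stands on the study's list of TADs with the most contact changes in RIS, a list drawn up on these same libraries. RIS against growing differences of the domain are therefore given as a description of the libraries with no test, and a fit of single bin pairs across the genome is given only as counts beside its background, from which nothing is read.

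IMR90 cells are human diploid lung fibroblasts with a limited life span in culture. The groups used here were 3 Hi-C libraries of growing cells and 2 libraries of cells in RAS-induced senescence (RIS). The cells carried a fusion of the oestrogen receptor with HRAS G12V, an oncogenic form of the GTPase HRAS. RIS was induced with 100 nM 4-hydroxytamoxifen (4OHT) for 6 days, which switches on the fusion protein, and growing cells were not treated with it. Growing replicate 3 carried an MSCV vector, a retroviral backbone, as well. The libraries were made from pools of many cells, so a contact value is an average over cells, and the fusion drives RAS from outside its own gene. The paper calls its Hi-C replicates biological, but the labels do not say whether replicates of a condition came from separate cultures. Any p-value then measures only the spread between these libraries, which may be technical. Hi-C measures no RNA, so fibroblast identity and the RNA levels of PTPRU and MATN1 could not be checked here.

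PTPRU encodes a receptor-type protein tyrosine phosphatase found at sites of cell to cell contact. MATN1 encodes matrilin 1, a protein of the extracellular matrix of cartilage. A TAD is a stretch of chromosome whose parts touch each other more often than they touch the neighbouring stretches. Cohesin is thought to extrude loops of chromatin until it meets CTCF bound at the TAD borders, so that borders often hold binding sites for CTCF facing into the TAD. On a larger scale, chromatin separates into an A compartment, rich in active genes, and a B compartment, poor in them, and regions of a kind touch each other over long distances.

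The core held few genes. It contained 2 starts of protein-coding genes, 1.28 per Mb, against 17.2 per Mb in the left flank, 14.4 per Mb in the right flank and 8.39 per Mb on the whole chromosome. Of the 17 annotated genes that overlapped it, 3 were protein-coding: PTPRU, MATN1 and ENSG00000289710, an unnamed gene model of 0.171 kb at chr1:31049502-31049672. The others were 8 long non-coding RNAs (lncRNAs), 3 miRNAs and 3 pseudogenes. LINC01756 lies next to PTPRU, LINC01648 lies in the middle of the stretch, and MATN1-AS1 overlaps MATN1 on the opposite strand. An assembly gap of 150 kb at chr1:29878083-30028082 left 3 bins of the stretch without contacts, and 36 of 39 bins of the core and 34 of 37 bins of the stretch between the genes were covered in every library. The middle bin of PTPRU (chr1:29600001-29640000) holds no HindIII site, the sequence at which this Hi-C cut the DNA, and was not covered either, so PTPRU was measured by the bin of its start and the bin of its 3′ end. The bin of its start lies outside the core, in the left flank as defined here.

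The reference sequence next to the ends and next to the minima of contact inside the core is shown first, since borders of contact are what the results turn on. Both strands of chromosome 1 (GRCh37, the primary assembly behind hg19) were searched for a short CTCF-like pattern of 14 letters with 9 fixed letters: CCA, 2 bases of any kind, AG, 2 bases of any kind, GGC, 1 base of any kind and C. The pattern is only part of the longer motif of CTCF. Each sequence runs 5′ to 3′ on the strand of the match, with 20 bases on each side, and capitals mark the fixed letters.
PTPRU end, chr1:29529532-29529585, - strand, inside MECR: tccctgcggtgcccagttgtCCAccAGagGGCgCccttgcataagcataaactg
PTPRU end, chr1:29628053-29628106, + strand, inside PTPRU: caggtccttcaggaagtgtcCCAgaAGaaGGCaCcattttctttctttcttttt
Stretch, chr1:30170992-30171045, + strand, 531 kb from the start of the core: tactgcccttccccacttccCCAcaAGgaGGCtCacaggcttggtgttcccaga
Stretch, chr1:30195813-30195866, - strand, 555 kb from the start of the core: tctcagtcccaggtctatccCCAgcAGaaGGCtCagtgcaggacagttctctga
Stretch, chr1:30302092-30302145, - strand, 662 kb from the start of the core: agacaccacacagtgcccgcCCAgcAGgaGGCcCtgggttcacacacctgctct
Stretch, chr1:30634284-30634337, - strand, 994 kb from the start of the core: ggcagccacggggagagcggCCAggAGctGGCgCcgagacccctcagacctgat
MATN1 end, chr1:31151824-31151877, + strand, 1511 kb from the start of the core: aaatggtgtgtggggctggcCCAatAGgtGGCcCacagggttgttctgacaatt

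At least 1 match lay in 40.6% of the 32 covered and fully sequenced bins of the stretch, 18.5% of those in the left flank, 34.4% of those in the right flank and 23.2% of the 5502 such bins of the chromosome. The fixed letters of the pattern are mostly G and C. The median share of G and C bases per bin was 47.2% in the stretch and 40.7% on the chromosome. In the left and right flanks it was 45.6% and 47.7%. The part of base content in the shares of bins with a match was not tested. Of the 14 matches in these 32 bins of the stretch, 5 were on the + strand and 9 on the - strand. The match inside PTPRU points into the core and the one inside MECR points away from it. The match 1511 kb from the start of the core points out of it. It is the single one in the bin of MATN1 and the bins on both sides. The next bin outward, chr1:31240001-31280000, was not among those printed. It held 2 matches on the + strand and 1 on the - strand, the latter facing the core. The bins on both sides of the minima of contact at 30840001 and 30880001 held no match. With matches in 40.6% of the bins of the stretch, nothing is read from a match beside a minimum. A match is only a run of letters, and no binding of CTCF was measured in these libraries.

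The files gave contacts after iterative correction (ICE), a balancing that gives every bin the same total, with each library scaled to the same sum. Division by the balancing factors gave back whole contacts in every library, 109967509 to 180775315 per library over all chromosomes and 17366 to 23506 per library between different bins of the core. Contacts are given as log2 of observed over expected (O/E), the expected value being the mean for the same distance on chromosome 1. A value of 0 means the contact usual for that distance and a value of 1 means 2-fold more. RIS replicate 1 was the shallowest library.

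The core was richer in contacts with itself in RIS, and so was MATN1 in contacts with the stretch, while the libraries overlapped for PTPRU. Over 630 pairs of different bins of the core, the growing libraries had a log2 O/E of 0.33, 0.32 and 0.33, in the order of their replicate numbers, and the RIS libraries had 0.48 and 0.44. The means were 0.33 ± 0.003 (SD, n = 3) and 0.46 ± 0.03 (SD, n = 2), a difference of 0.14, or 9.84% more contact. With equal weight for every bin pair the difference was 0.01. Both RIS libraries lay above all growing libraries. The same separation was seen in 787 of 1675 non-overlapping windows of the core's length across the genome, 47.0%, and nothing is read from it for the core, which was chosen on this contrast. The median difference over these windows was 0.01, and 64 windows differed by as much as the core or more. The other 9 listed TADs, chosen in the same way, differed by -0.20 to 0.33.

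**Figure D1:**
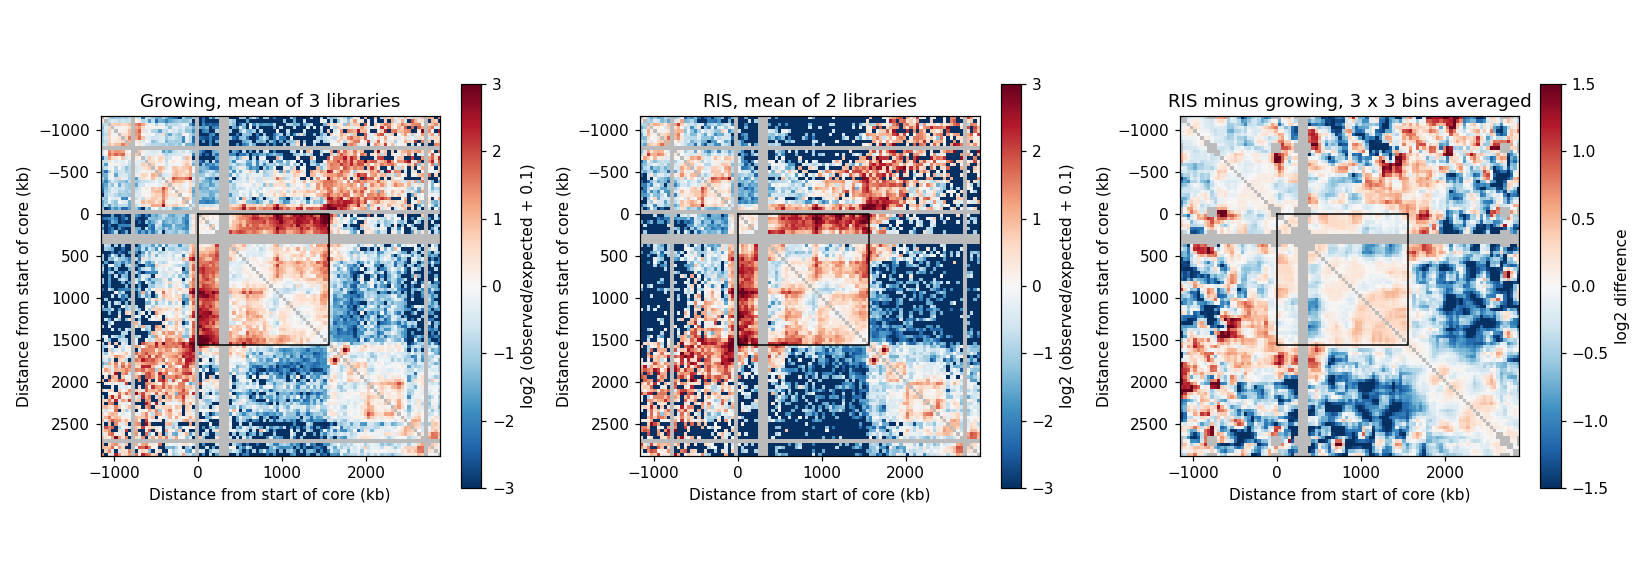
Contacts around the core, with distance from the start of the core in kb on both axes and log2 (O/E + 0.1) as colour for the mean of the 3 growing libraries (left), the mean of the 2 RIS libraries (middle) and their difference averaged over 3 x 3 bins (right); grey marks uncovered bins and the diagonal, and the black square is the core. In these balanced values the core forms a square of raised contact in both conditions, with stripes along both of its edges that meet in the corner where PTPRU faces MATN1.

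The stretch between the genes accounted for most of the core. For pairs of different stretch bins, the growing libraries had a log2 O/E of 0.30, 0.29 and 0.31 and the RIS libraries had 0.45 and 0.41, a difference of 0.13. With equal weight for every bin pair, the direction turned, with a difference of -0.01. The size of this difference depended on distance. At distances up to 200 kb, log2 O/E was 0.00, -0.02 and 0.02 in growing cells and 0.22 and 0.17 in RIS. From 240 to 600 kb the growing libraries stood at 0.60, 0.62 and 0.62 and the RIS libraries at 0.76 and 0.73. Beyond 600 kb the libraries overlapped, at 1.48, 1.45 and 1.398 in growing against 1.38 and 1.44 in RIS. The higher contact in RIS thus lay at short and middle distances, while the far contacts, which stood furthest above the usual level for their distance, did not separate the conditions in balanced values. Without balancing the differences were 0.41 up to 200 kb, 0.34 from 240 to 600 kb and 0.24 beyond 600 kb. In each class both RIS libraries were then above all the growing ones.

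The stretch was also divided by position into 3 parts of 12, 11 and 11 covered bins. The part next to MATN1 showed the widest gap with itself, at -0.01, -0.05 and 0.00 in growing and 0.31 and 0.21 in RIS, a difference of 0.28. The part next to PTPRU differed with itself by 0.16 and the middle part by 0.12, and in each of them both RIS libraries exceeded all growing libraries. Contact between the PTPRU side and the MATN1 side ran the other way, at 1.33, 1.22 and 1.16 in growing and 1.03 and 1.06 in RIS, a difference of -0.19. Each part thus had more contact with itself in RIS, relative to the usual level for the distance, and the outer parts had less with each other. The latter depended on balancing, since the outer parts differed by 0.05 with overlapping libraries on contacts not balanced for coverage, while the others kept their direction.

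In balanced values, the libraries overlapped in the contact of PTPRU with the stretch. Its log2 O/E with the 34 covered stretch bins was 0.96, 0.98 and 0.94 in growing cells and 0.95 and 1.02 in RIS, with a difference of 0.02. Without balancing the difference was 0.22, and both RIS libraries exceeded all growing libraries. These values rest on 864 to 1150 contacts per library. In 9 steps along the stretch, each of up to 4 covered bins, contact of PTPRU stood at 0.22 (growing mean) next to the gene, at 1.63 from 440 to 600 kb and at 2.74 in the last step before MATN1. That last step, 1400 to 1480 kb away, read 2.91, 3.01 and 2.31 in growing and 3.27 and 3.23 in RIS. RIS also lay above growing at 760 to 920 kb, but narrowly, at 2.292, 2.274 and 2.145 in growing and 2.616 and 2.296 in RIS. The libraries overlapped in the 7 other steps. The bin of the PTPRU start alone gave a difference of the opposite sign, -0.10, again with overlapping libraries.

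MATN1 had more contact with the stretch in RIS. Its log2 O/E was 0.35, 0.37 and 0.34 in growing cells and 0.62 and 0.58 in RIS, and the means of 0.35 ± 0.01 (SD, n = 3) and 0.60 ± 0.03 (SD, n = 2) differed by 0.25, or 18.9% more contact. The contacts behind these values numbered 586, 618 and 596 in growing and 573 and 682 in RIS. Without balancing the difference was 0.48, and both RIS libraries exceeded all growing libraries. Without the nearest stretch bins, within 160 kb of the gene, the balanced difference was 0.33. The difference was not particular to MATN1. ENSG00000289710, inside the stretch, differed in its contact with the stretch by 0.25, and the part of the stretch next to MATN1 differed with itself by 0.28. Of the 9 steps along the stretch, 8 had a higher mean in RIS, and in 4 of these both RIS libraries lay above all growing libraries: from 160 to 320 kb, 640 to 800 kb, 800 to 960 kb and 1400 to 1480 kb. The step from 160 to 320 kb read 0.03, -0.12 and -0.08 in growing and 0.29 and 0.55 in RIS. The step from 640 to 800 kb separated narrowly, at 1.086, 0.945 and 0.886 in growing and 1.094 and 1.147 in RIS. The remaining step, from 1120 to 1400 kb, had a lower mean in RIS, by 0.14, with overlapping libraries. Higher means of MATN1 in RIS were thus found in near and far parts of the stretch. No share of separated steps over other bins was computed, so nothing is read from their number for either gene.

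**Figure D2:**
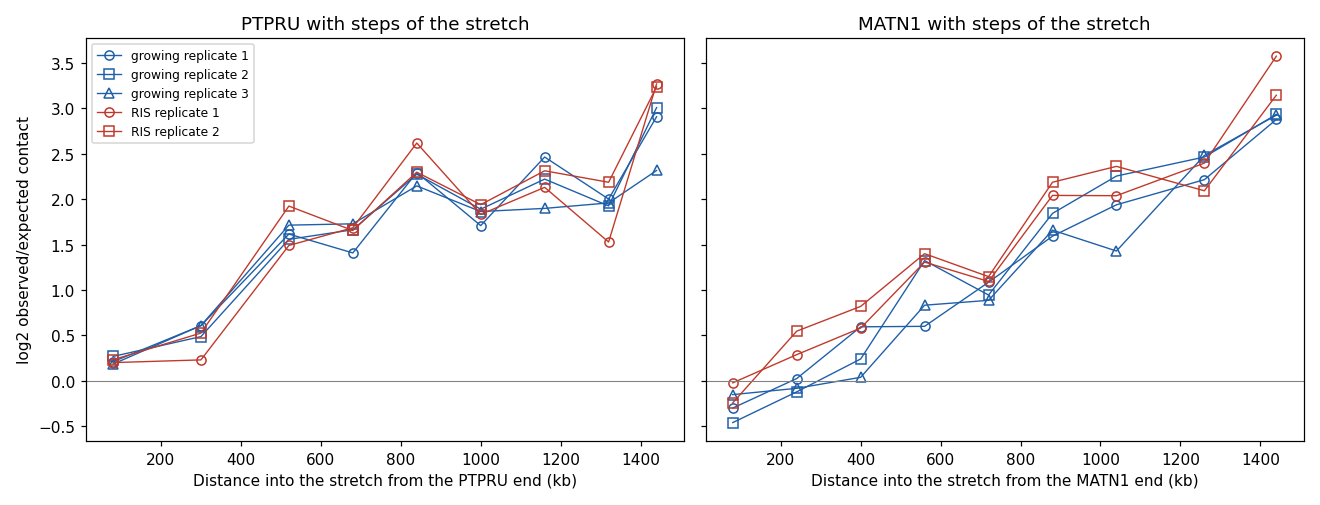
Log2 O/E contact of PTPRU (left) and MATN1 (right) with successive steps of the stretch, against the distance into the stretch in kb; each line is 1 of the 5 libraries. The curves of the conditions cross each other for PTPRU, while for MATN1 the RIS libraries mostly run above the growing libraries, and both genes climb towards the opposite end.

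The level of one gene against the other within a library is a comparison that the ranking by contact changes did not use. The TAD borders beside both genes were still called on Hi-C of this study, so the comparison is not wholly separate from the choice. PTPRU touched the stretch more than MATN1 did in 5 of 5 libraries, by 0.62, 0.61 and 0.60 in growing and by 0.33 and 0.43 in RIS. The mean of the 5 within-library differences was 0.52 ± 0.13 (SD, n = 5), with p = 0.0625 in a two-sided exact sign-flip permutation test, which is the smallest p that 5 libraries allow, and 0.0625 after Benjamini-Hochberg adjustment over a family of 3. On contacts not balanced for coverage, the mean difference was 0.25. The genes were not measured over equal distances. Pairs of PTPRU with the stretch reach 1560 kb and those of MATN1 1480 kb. The PTPRU start bin has no pair with the stretch under 120 kb. Without balancing it stood at a growing mean of -0.11, against -0.53 for PTPRU as a whole and -0.89 for MATN1. The higher level of PTPRU then leaned on its start bin. Its 3′ bin alone was not set against MATN1. The other comparisons of the family set the contact of the core with itself against that of the flanks. The core was defined as a TAD, which its contact with itself helped to define, so these are given with no p: the core was above the left flank by a mean of 0.22 (0.46 without balancing) and above the right flank by 0.15 (0.11 without balancing). The PTPRU bins and the MATN1 bin were also poorly covered before balancing. Their log2 coverage relative to the median bin of chromosome 1 was -1.42 and -1.10 (growing means).

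The contact between the genes themselves formed the corner of the domain. PTPRU with MATN1, across 1520 to 1600 kb, had a log2 O/E of 3.38, 3.93 and 3.90 in growing and 4.23 and 4.18 in RIS. On the linear scale that is 10.4-fold, 15.2-fold and 14.9-fold the expected contact in growing and 18.7-fold and 18.1-fold in RIS. Both RIS libraries lay above all growing libraries, but few contacts carry the values. The 2 bin pairs together held 22, 32 and 34 contacts in growing and 34 and 32 in RIS. The exact 95% Poisson interval of the lowest of these, 22 in growing replicate 1, was 13.8 to 33.3, and that of 34 was 23.5 to 47.5. These intervals cover counting error only. They overlap between all 5 libraries, but the counts are not scaled to library depth, so the overlap does not bear on O/E. From library depth and distance alone, 7.18, 8.37 and 8.43 contacts were expected in growing and 5.34 and 6.61 in RIS. Before balancing, growing libraries thus held 3.06 to 4.03 times the expected number and RIS libraries 6.36 and 4.84 times. Without growing replicate 1, the difference between conditions went from 0.47 to 0.29.

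Within the 8 by 7 bins around this corner, the pair of the PTPRU start with MATN1 had the highest mean O/E in both conditions, 16.0-fold in growing and 23.0-fold in RIS. It held 15, 20 and 24 contacts in growing and 24 and 21 in RIS. The next highest means in growing cells, 11.27-fold and 11.25-fold, were those of MATN1 with the bin chr1:29520001-29560000 in MECR, on the outer side of PTPRU, and with the 3′ end of PTPRU. The next highest mean in RIS, 17.3-fold, joined the 3′ end of PTPRU with the bin chr1:31120001-31160000 just inside MATN1, on 12 and 15 contacts. High values therefore clustered where the genes meet in both conditions, in a patch of several bins rather than at 1 pair.

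**Figure D3:**
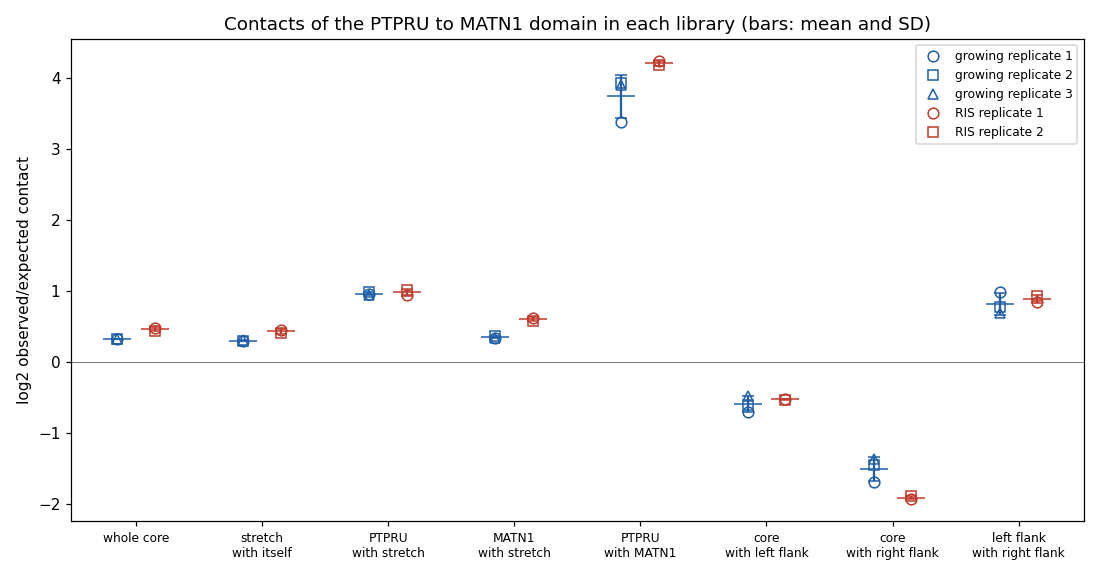
Log2 O/E for 8 kinds of contact of the domain, with each of the 5 libraries as a point and the mean and SD of each condition as bars. RIS points lie above growing points for the whole core, the stretch with itself, MATN1 with the stretch and PTPRU with MATN1, below them for the core with the right flank, and among them for the other 3.

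Contacts of the core with each flank were summed. The core with the left flank, which includes the start of PTPRU, had a log2 O/E of -0.70, -0.60 and -0.47 in growing and -0.51 and -0.53 in RIS, so the libraries overlapped. This sum held 2249, 2742 and 2985 contacts in growing and 2013 and 2389 in RIS. Of these, 491, 561 and 627 in growing and 382 and 491 in RIS joined the PTPRU start bin with the stretch. By the score given below, the border lies on the outer side of that bin, so not all of this sum crosses the border. The core with the right flank, beyond MATN1, had -1.69, -1.45 and -1.36 in growing and -1.92 and -1.89 in RIS, a difference of -0.40 with both RIS libraries below all growing libraries. These contacts numbered 1510 to 2087 per growing library and 1013 and 1285 in RIS. MATN1 itself with the right flank differed by -0.10, at -0.72, -0.80 and -0.63 in growing and -0.81 and -0.83 in RIS. Without balancing that difference was 0.05, with overlapping libraries, and that of the core with the right flank was -0.24. PTPRU with the right flank was higher in RIS, at 0.78, 0.49 and 0.39 in growing and 0.95 and 0.90 in RIS, on 88 to 97 contacts per library. The flanks touched each other across the core at 0.99, 0.77 and 0.69 in growing and 0.84 and 0.93 in RIS, above the usual level for their distance in every library and overlapping between conditions. Without balancing they were below it in every library, at -0.01, -0.21 and -0.23 in growing cells and -0.03 and -0.09 in RIS.

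The ends were also described by the insulation score. It is the log2 O/E of contacts that cross a position within 520 kb on each side, and a low value marks a border. At the PTPRU end, the lowest score lay at the start of the bin of the PTPRU start (29560001) in every library, at -1.39, -1.31 and -1.38 in growing and -1.31 and -1.29 in RIS, and the conditions overlapped. At the MATN1 end it lay at 31200001, the outer edge of the MATN1 bin, in every library, at -1.83, -1.62 and -1.61 in growing and -2.04 and -1.94 in RIS. The means there were -1.69 ± 0.13 (SD, n = 3) and -1.99 ± 0.08 (SD, n = 2), a difference of -0.30. The difference depended on the reach, and was -0.12 with a reach of 320 kb and -0.01, with overlapping libraries, with a reach of 200 kb. Between the ends, the mean score was 0.44, 0.45 and 0.44 in growing and 0.57 in both RIS libraries.

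Inside the core, weaker minima divided the stretch. A sub-border was counted as a minimum of the insulation score with a prominence of at least 0.1, prominence being the rise on the shallower side. With a reach of 520 kb, growing libraries held 1, 2 and 1 sub-borders and both RIS libraries held 2. The minimum at 30600001, 960 kb from the start of the core, was present in every library, with a prominence of 0.21, 0.22 and 0.23 in growing and 0.40 and 0.46 in RIS. The score at that position was nearly the same in both conditions, 0.15 in growing and 0.12 in RIS, so the greater prominence came with higher scores beside it. The other minimum lay at 30320001 in both RIS libraries, with a prominence of 0.13 and 0.16, and at 30360001 in growing replicate 2, with a prominence of 0.11. The count of 2 in RIS was 1 at a prominence of 0.2, and with shorter reaches the conditions had equal numbers in their mean matrices.

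With a reach of 200 kb, the minima were sharper. At 30200001, 560 kb from the start of the core and next to the pair of matches that face each other 531 and 555 kb in, the score was -0.37, -0.45 and -0.50 in growing cells and -0.69 and -0.71 in RIS. At 30600001 the growing libraries had -0.52, -0.50 and -0.56 and the RIS libraries -0.59 and -0.70. Both RIS libraries were below all growing libraries at both positions. Near 30880001, towards MATN1, the score ran the other way, at -0.06, -0.01 and -0.07 in growing and 0.30 and 0.21 in RIS. The bins beside that position held no match, and the placement of matches beside minima was not tested.

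**Figure D4:**
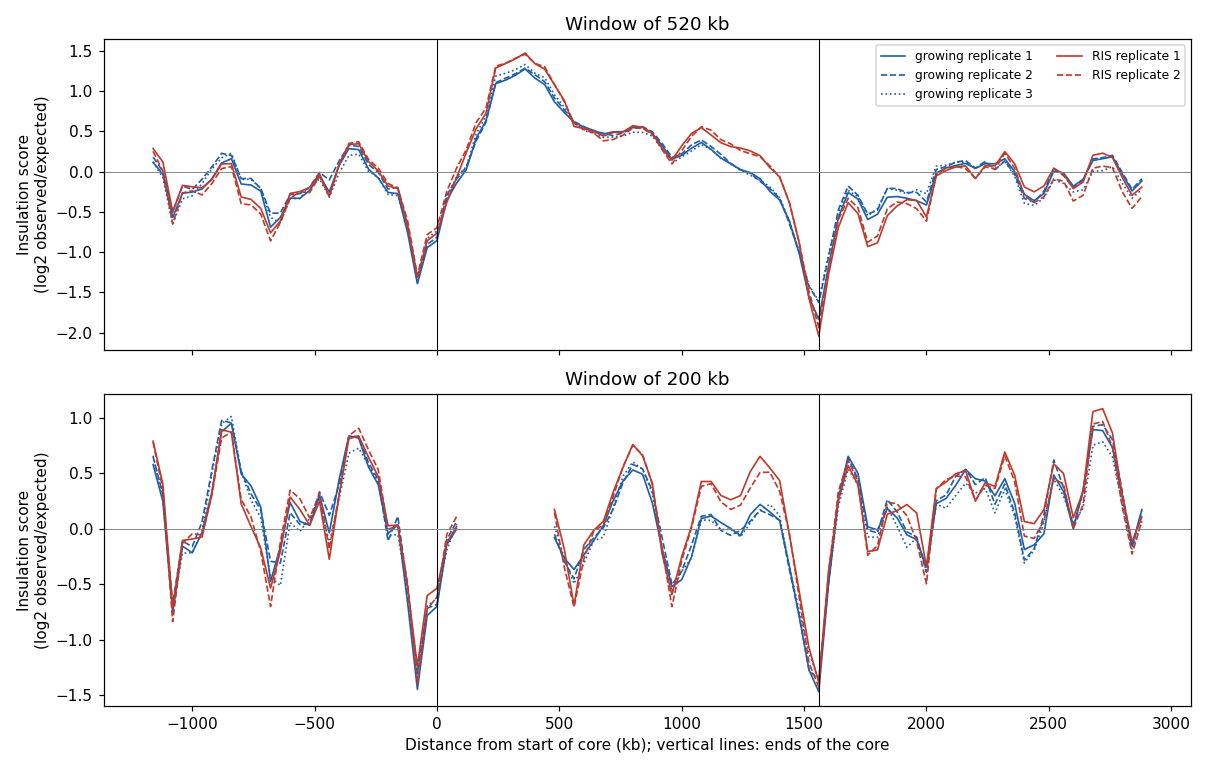
Insulation score (log2 O/E) along the region against the distance from the start of the core in kb, with a reach of 520 kb (top) and 200 kb (bottom), 1 line per library; the vertical lines are the ends of the core, and the break in the lower panel is the assembly gap. The deepest minima lie at the ends in every library, and at the MATN1 end the RIS libraries go lower than the growing libraries with the longer reach.

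The core lay in the B compartment in growing cells and was near the middle of the scale in RIS. The compartment score is the first principal component of the correlations between distance-corrected contact profiles of chromosome 1 in bins of 120 kb, in units of its SD over the chromosome, with positive values for the gene-rich A side. Over 12 scored bins of the core it averaged -0.72, -0.67 and -0.59 in growing and -0.15 and -0.17 in RIS, a difference of 0.50. Both RIS libraries were above all growing libraries in 12 of 12 core bins. On chromosome 1 this held for 29.3% of 1849 bins, and both RIS libraries were below all growing libraries for 35.2%. Neighbouring bins share contacts and the component is fitted on all of them, so the 12 bins are not separate observations. No bin of the core was above 0 in the growing libraries, and 3 and 4 bins were above 0 in RIS replicates 1 and 2. Over the chromosome, 42.2% to 42.9% of bins were above 0 in growing and 46.8% and 47.2% in RIS. The highest scores of the core in RIS, a mean of 0.32, were at chr1:30000001-30120000, beside the assembly gap, and the lowest, -0.45, at chr1:30960001-31080000.

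The flanks stayed on the A side. The left flank averaged 0.67, 0.61 and 0.69 in growing and 0.63 and 0.53 in RIS, and the right flank 0.91, 0.82 and 0.86 in growing and 0.88 and 0.84 in RIS, with overlapping libraries on both sides. The step in score at the MATN1 end was steep in every library. The last core bin, which holds MATN1, had -0.66 in growing and -0.13 in RIS, and the next bin outward had 0.75 and 0.86. The score also stepped at the PTPRU end. The bin of the PTPRU start had 0.31 in growing and 0.43 in RIS, and the next bin, with its 3′ end, had -0.63 and 0.03. In these means both steps were smaller in RIS.

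**Figure D5:**
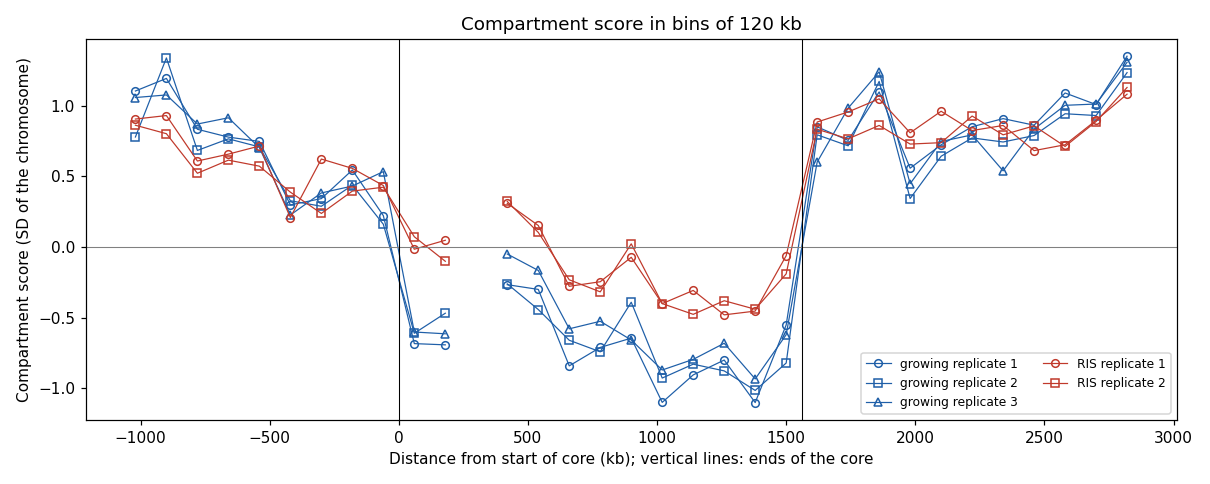
Compartment score in bins of 120 kb (units of SD over chromosome 1) against the distance from the start of the core in kb, with 1 line per library; the vertical lines are the ends of the core. All 12 core bins lie higher in both RIS libraries than in the growing libraries, while the means of the flanks overlap.

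Long-range contacts of the core were split by the compartment of the partner. Beyond 2 Mb on chromosome 1, the core touched the 20% of bins with the lowest growing score at a log2 O/E of 0.56, 0.43 and 0.30 in growing and -0.19 and -0.11 in RIS, a difference of -0.58. With the 20% of bins with the highest growing score it had -1.36, -1.36 and -1.19 in growing and -1.24 and -1.24 in RIS, and the libraries overlapped. The partner bins were picked on the growing libraries alone, which favours a lower value in RIS for partners of the lowest score, and nothing further is read from these differences.

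The other protein-coding genes of the region were compared by the same measure, their contact with the stretch. Of 39 such genes, 36 had contacts in every library. Both RIS libraries were above all growing libraries for 4 of them, 11.1%, and below for 13, 36.1%, but several genes share bins and are not independent. ENSG00000289710, the gene model inside the core, was among the 4, with means of 0.26 in growing and 0.51 in RIS. In the left flank, 3 of 16 genes were higher and 2 lower. MECR, an enzyme of mitochondrial fatty acid synthesis and the nearest neighbour of PTPRU, was one of those higher, at -0.32, -0.27 and -0.29 in growing and -0.04 and -0.15 in RIS. SRSF4, a splicing factor, TMEM200B, a membrane protein, and EPB41, a protein of the membrane skeleton, had overlapping libraries with growing means of -1.40, -1.31 and -0.74, and so did PHACTR4, a regulator of actin and protein phosphatase 1, at -2.68.

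In the right flank, none of 19 genes was higher and 11 were lower. LAPTM5, a lysosomal membrane protein of blood cells, and SDC3, a heparan sulphate proteoglycan, both close to MATN1, were not among the 11. They had growing means of -0.96 and -1.73, differences of -0.12 and 0.05, and overlapping libraries. Over the 5 libraries, the genes whose contact with the stretch lay nearest to that of PTPRU were MATN1, at a Euclidean distance of 1.19, ENSG00000289710 at 1.396 and MECR at 2.66. Those nearest to MATN1 were ENSG00000289710 at 0.23, PTPRU at 1.19 and MECR at 1.49.

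Single bin pairs were also fitted across the genome, as a scale for the domain. In limma's fit of the balanced values, 1205 of 2087248 pairs up to 2 Mb apart were called at an adjusted p of 0.05 (Benjamini-Hochberg), which is 0.0577%, and 0 of the 628 tested pairs of the core. At an unadjusted p under 0.05 there were 64 of 628 pairs in the core and 206917 of 2087248 over all. Of the 1205 calls, 1202 had no contact at all in a whole condition. In the limma voom fit of the recovered contacts, which are not balanced, 26995 pairs were called, 1.29%, and 17693 of them were higher in RIS, 0.848%. In the core voom called 71 of 628 pairs, 11.3%, and all 71 were higher in RIS. Of these, 53 joined bins up to 200 kb apart. By place, 68 of the 71 joined stretch bins with each other, 2 joined the 3′ end of PTPRU with the stretch and 1 joined MATN1 with the stretch. With the bin of its start, which lies outside the core, PTPRU had 3 calls among 68 pairs with the stretch, against 1 among 34 for MATN1. Of the 2 pairs of PTPRU with MATN1, limma and voom called 0, and 1 had an unadjusted p under 0.05 with voom and 0 with limma. Without RIS replicate 1 or without RIS replicate 2, voom called 10 pairs of the core each time, and 0.0709% and 0.0490% of all pairs. The core was selected on this contrast, so nothing is read from these counts beside their backgrounds. The study called its changes by another method, diffHic at several bin sizes, so the counts here do not check its list.

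Technical measures moved with the conditions. Coverage of the core before balancing, as log2 relative to the median bin of the chromosome, was -0.71, -0.77 and -0.71 in growing cells and -0.58 and -0.56 in RIS, a difference of 0.15, against 0.05 in the left flank and 0.04 in the right flank. On contacts not balanced for coverage, the core stood below the level usual for the distance in every library, at -0.55, -0.62 and -0.51 in growing cells and -0.19 and -0.20 in RIS, a difference of 0.36. PTPRU with the stretch then differed by 0.22 and MATN1 with the stretch by 0.48, and in each case both RIS libraries exceeded all growing libraries. By the duplicates in the study's library statistics, the libraries fall into 2 classes. Within those with few (growing replicates 1 and 2 and RIS replicate 1) the balanced difference of the core was 0.16, and within those with many (growing replicate 3 and RIS replicate 2) it was 0.12. PTPRU with the stretch differed by -0.03 in the former and 0.07 in the latter, and MATN1 with the stretch by 0.26 and 0.24. The class with many duplicates holds 1 library per condition, so its differences have no spread. Its growing library is the one with the MSCV vector, and vector and duplicates cannot be told apart. The share of dangling ends, fragments that were cut but not joined, also separated the conditions in the study's library statistics. The parts of coverage, duplicates and dangling ends in these differences were not tested. With equal weight for every bin pair, MATN1 with the stretch differed by 0.25 and PTPRU with MATN1 by 0.35, in the same direction as in sums of contacts.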

How the data were processed

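Of the IMR90 libraries made by Hi-C with HindIII digestion and ligation in the nucleus, 3 were from growing cells and 2 from RIS cells, per the labels. The authors checked reads with FastQC, aligned and binned them with HiC-Pro against hg19, removed artefacts and duplicates, and deposited ICE-balanced contact signal per pair of 40 kb bins, per library, scaled to one total. The deposited balanced signal evens out coverage between bins, so that a gain in coverage of a whole region is taken out. Division by balancing factors, fitted per bin on contacts between chromosomes, gave back whole contacts. Of the values below 20 contacts, 100% lay within 0.05 of a whole number in every library. These whole contacts were the depth behind each value. The capture Hi-C files hold no bin of the core and were not used.

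Observed over expected used bins of chromosome 1 covered in all 5 libraries. Insulation used a reach of 520 kb, and compartment scores bins of 120 kb. Bin pairs up to 2 Mb apart with a mean scaled value of at least 5 were fitted in limma 3.58.1 (R 4.3.3) on log2 (value + 0.5) after loess normalization, and with voom on recovered contacts, without a block. In simulated data, borders and the direction of calls were checked. Other values came from Python 3.11.15, numpy 2.4.6 and scipy 1.17.1.

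Replicate numbers were not used to pair the libraries in the main fits. Deviations from the condition means correlated at 0.0023 for replicates 1 and -0.0019 for replicates 2. The deviations of the RIS libraries from their own mean mirror each other, so these values are not separate checks. Single bin pairs hold few contacts, so such low values cannot exclude a shared batch. The members and lists were chosen with earlier results of these data known. Beside PTPRU and MATN1, genes were named by rule: protein-coding genes inside the core, the 3 nearest to each end on the outer side, those over 100 kb long, and the 3 nearest in contact with the stretch. A gene that this rule named is not reported here. Alternatives were balancing, the expected value, weighting, reach, bin size, filters, blocks and each library left out. The insulation from plain means and the filter of at least 5 recovered contacts were chosen after seeing the data.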

Additional observations from a re-analysis of the deposited data

How the results depend on the processing

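All values are RIS minus growing on the log2 scale unless said otherwise. On recovered contacts without balancing, the difference was 0.36 for the core, 0.22 for PTPRU with the stretch, 0.48 for MATN1 with the stretch, 0.36 for the stretch with itself and 0.0242 for the core with its flanks, against -0.11 with balancing. With the expected value from all autosomes it was 0.17 for the core, 0.0564 for PTPRU, 0.28 for MATN1 and 0.16 for the stretch with itself. With equal weight for every pair it was 0.0080 for the core, -0.0218 for PTPRU and -0.0148 for the stretch with itself, which turned the sign of both; the cause was not tested. PTPRU by its start bin alone gave -0.10, and MATN1 without its nearest stretch bins gave 0.33. Within few-duplicate and many-duplicate libraries, the core gave 0.16 and 0.12, PTPRU with the stretch -0.0259 and 0.0738, and the stretch with itself 0.16 and 0.11, and the core with its flanks gave -0.24 within the many-duplicate libraries. The many-duplicate values rest on 1 library per condition. With a reach of 320 kb the PTPRU end differed by -0.0378 in insulation and the MATN1 end by -0.12, and with 200 kb the MATN1 end differed by -0.0067. Sub-borders in growing cells numbered 2 with a reach of 320 kb, 3 with 200 kb and 2 from plain means, and in RIS 1 at a prominence of 0.2. In bins of 200 kb, the compartment score of the core differed by 0.44 and its contact with distant A bins by -0.0648.

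Leaving out each library in turn gave 0.12 to 0.16 for the core, -0.0159 to 0.0539 for PTPRU with the stretch, 0.23 to 0.27 for MATN1 with the stretch, 0.29 to 0.56 for PTPRU with MATN1, 0.11 to 0.15 for the stretch with itself, -0.18 to -0.05 for the core with its flanks, 0.05 to 0.08 for insulation at the PTPRU end, -0.37 to -0.25 at the MATN1 end, 0.47 to 0.53 for the compartment score, 0.03 to 0.12 for distant A bins and -0.64 to -0.52 for distant B bins, with 1 sub-border in growing and 2 in RIS each time. In the core, limma called 0 pairs under each alternative, the replicate block included, and voom called 71. With a library left out, voom called 10 without either RIS library and 43, 45 and 59 without growing replicates 1, 2 and 3. It called 72 with a pseudocount of 2, 69 with a smallest mean value of 2, 50 with scaling to the total only, 75 up to 1 Mb, 75 with at least 5 recovered contacts, 83 with a block for duplicates and 61 with the replicate block. The replicate number as a block pairs libraries by number alone, and whether those share a batch is not known. This block left limma with 0 calls over all pairs. Limma also called 0 of all pairs with a pseudocount of 2, a block for duplicates or at least 5 recovered contacts, and without RIS replicate 1 or any 1 growing library. Voom called 0.921% to 2.09% of all pairs with every library in and 0.0490% to 0.876% with 1 left out. Scaling to the total only moved the median of all pairs to -0.12 in limma, relative to which changes are read. Depth limits PTPRU with MATN1, at 22 to 34 contacts per library, and the single pairs around it.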
